A study of Dorcoceras hygrometricum with 14 samples.

Results

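Carbonic anhydrases were followed in leaf pieces of Boea hygrometrica, a resurrection plant of the Gesneriaceae, as they were cultured on a shoot-inducing medium. All genes whose homology description or product contained the words carbonic anhydrase were taken, up to 10 by mean expression over the 12 RNA libraries. Apart from the text match, members would have been chosen by their mean FPKM, but the rule found only 9 genes among the 24110 of the expression table, so no matching gene was left out for a low level. Gene F511_22488 was named in advance with its values known, and its values are therefore given as a description with no test. The other 8 genes were tested. All 9 genes passed the filter on low values, and the lowest value of any of them in any library was 2.01 FPKM.

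The explants were pieces of 0.5 cm by 0.5 cm cut from young leaves of sterile 1-month-old plants. They lay with the lower leaf side on 1/2 MS medium supplied with the auxin 2,4-D and the cytokinin 6-BA, at 0.1 mg/L each, for 0, 5, 10 or 15 days. For every day there were 3 biological replicates, each a pool of about 30 leaf discs, and day 0 served as the control. The same series holds bisulfite sequencing of DNA from young (1-month) and mature (6-month) leaves, with 1 library for either age. Explants kept without hormones were not analysed here, so time in culture, cutting and hormones cannot be told apart.

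Carbonic anhydrases interconvert carbon dioxide and bicarbonate. Plants carry alpha, beta and gamma classes that share this reaction but not their protein fold. In leaves of C3 plants the chloroplast beta enzymes are among the most abundant soluble proteins after Rubisco, the enzyme that fixes carbon dioxide. In Arabidopsis, beta enzymes also act in the carbon dioxide response of guard cells, and gamma enzymes and gamma-like proteins form a domain of mitochondrial complex I, the first enzyme of the respiratory chain. The names below are those of the deposited annotation, which rests on homology.

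Of the 9 genes, 4 belonged to the beta class, 3 to the alpha class and 2 to the gamma class. They lay on 9 different scaffolds, and none overlapped the span of another gene. No gene outside the 9 carried the KEGG entry of the beta or of the alpha genes. The gamma genes had no KEGG entry, so this search could not find further gamma genes. Expression is given in FPKM, fragments scaled to transcript length and to library total, so levels can be compared between genes as levels per length. Library totals ran from 846672 to 970083 FPKM, and from 15531 to 16496 genes per library reached 1 FPKM. In each day, replicate 3 had the most genes at or above 1 FPKM, and replicate 3 stood below the others for the most abundant carbonic anhydrases at days 5, 10 and 15. The fold changes of F511_01458 and F511_22488 are therefore also given without replicate 3.

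The most abundant carbonic anhydrase of the leaf was F511_01458, annotated as carbonic anhydrase, chloroplastic-like (scaffold KV006337.1, 551621 to 553507, a span of 1887 bases). It encodes a beta-class enzyme and ranked 36 of all genes by mean level. At day 0 it stood at 3902.42, 3059.46 and 4915.82 FPKM in replicates 1, 2 and 3, which placed it 14th, 19th and 17th among all genes of those libraries. At day 5 the values were 1552.38, 1311.49 and 926.28 FPKM. At day 10 they were 1976.97, 828.5 and 650.76 FPKM, and at day 15 they were 1007.25, 447.69 and 257.87 FPKM. Every library of a later day lay below every day 0 library, while days 5, 10 and 15 overlapped with one another. By day 15 its rank among all genes was 97, 319 and 499 in the 3 replicates.

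The mean of F511_01458 was 3959.2 ± 929.5 FPKM at day 0, 1263.4 ± 315.8 at day 5, 1152.1 ± 719.9 at day 10 and 570.9 ± 389.6 at day 15 (SD, n = 3). These later means were 31.9%, 29.1% and 14.4% of the day 0 mean. Differences were tested on log2(FPKM + 1) with limma over all 12 libraries, and p was adjusted by Benjamini-Hochberg over the 17288 genes tested. Called genes had an adjusted p under 0.05 together with a log2 fold change of 1 or more in either direction. F511_01458 fell by 2.99 on the log2 scale at day 15 (SE 0.51, 95% interval -4.11 to -1.87, adjusted p = 0.00571). It fell by 1.93 at day 10 (SE 0.51, interval -3.05 to -0.81, adjusted p = 0.0443). The difference at day 5 was -1.65 (SE 0.51, interval -2.77 to -0.53, adjusted p = 0.0573) and was not called. In a fit of only the 6 libraries compared, it was called (adjusted p = 0.0253), as it was with replicate number as a block (adjusted p = 0.0208).

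The day 15 call of F511_01458 was made under all 19 alternative settings, with adjusted p from 0.00174 to 0.0255. On replicates 1 and 2 alone the log2 fold change at day 15 was -2.36 (adjusted p = 0.0224). The calls at days 5 and 10 lay close to the threshold. On replicates 1 and 2 alone, the log2 fold changes at days 5 and 10 were -1.28 and -1.43 (adjusted p = 0.128 and 0.110), and neither was called. Leaving out replicate 1 of day 10, replicate 1 of day 15 or replicate 3 of day 15 gave a call at day 5, with adjusted p of 0.036, 0.0356 and 0.0405. Leaving out any of the other 9 libraries lost the call at day 10, with adjusted p up to 0.136. Over all alternatives the adjusted p ran from 0.0208 to 0.142 at day 5 and from 0.0155 to 0.136 at day 10.

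The second most abundant carbonic anhydrase was F511_22488, annotated as beta carbonic anhydrase 1, chloroplastic, with a plastid location in its gene ontology entry (scaffold KV013340.1, 10938 to 12666, a span of 1729 bases). It stood at 2396.16, 2111.38 and 2308.56 FPKM at day 0, and at 590.18, 570.01 and 217.67 FPKM at day 5. At day 10 the values were 879.64, 316.02 and 151.93 FPKM, and at day 15 they were 550.96, 101.48 and 58.03 FPKM. The 3 day 0 libraries lay close together, whereas the highest day 15 library was 9.49-fold above the lowest. Replicate 1 was the highest on all 4 days, and replicate 3 was the lowest on days 5, 10 and 15.

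The mean of F511_22488 was 2272.0 ± 145.9 FPKM at day 0, 459.3 ± 209.5 at day 5, 449.2 ± 381.7 at day 10 and 236.8 ± 272.9 at day 15 (SD, n = 3). On log2(FPKM + 1) the days differed from day 0 by -2.44, -2.70 and -3.92. On replicates 1 and 2 alone these differences were -1.95, -2.09 and -3.24. Single libraries moved the later values: the day 10 difference was -3.37 without replicate 1 of day 10 and -2.10 without its replicate 3. The day 15 difference was -4.87 without replicate 1 of day 15 and -3.25 without its replicate 3. Every library of a later day lay below every day 0 library, so leaving out a library could not change that order. The rank of F511_22488 among all genes went from 27, 33 and 40 at day 0 to 223, 1647 and 2861 at day 15.

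F511_01458 and F511_22488 shared the same best database match, a chloroplastic-like carbonic anhydrase isoform of the related crop sesame. If the genes are similar in sequence, reads could have been split between them in counting, so the level of each singly is uncertain, and the sum is less so. The ratio of F511_22488 to F511_01458 was 0.614, 0.69 and 0.47 at day 0 and 0.38, 0.435 and 0.235 at day 5. It was 0.445, 0.381 and 0.233 at day 10 and 0.547, 0.227 and 0.225 at day 15. Replicate 3 had the lowest ratio on each of the 4 days. At day 0 the ratio overlapped with that of day 15 but not with those of days 5 and 10.

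**Figure D1:**
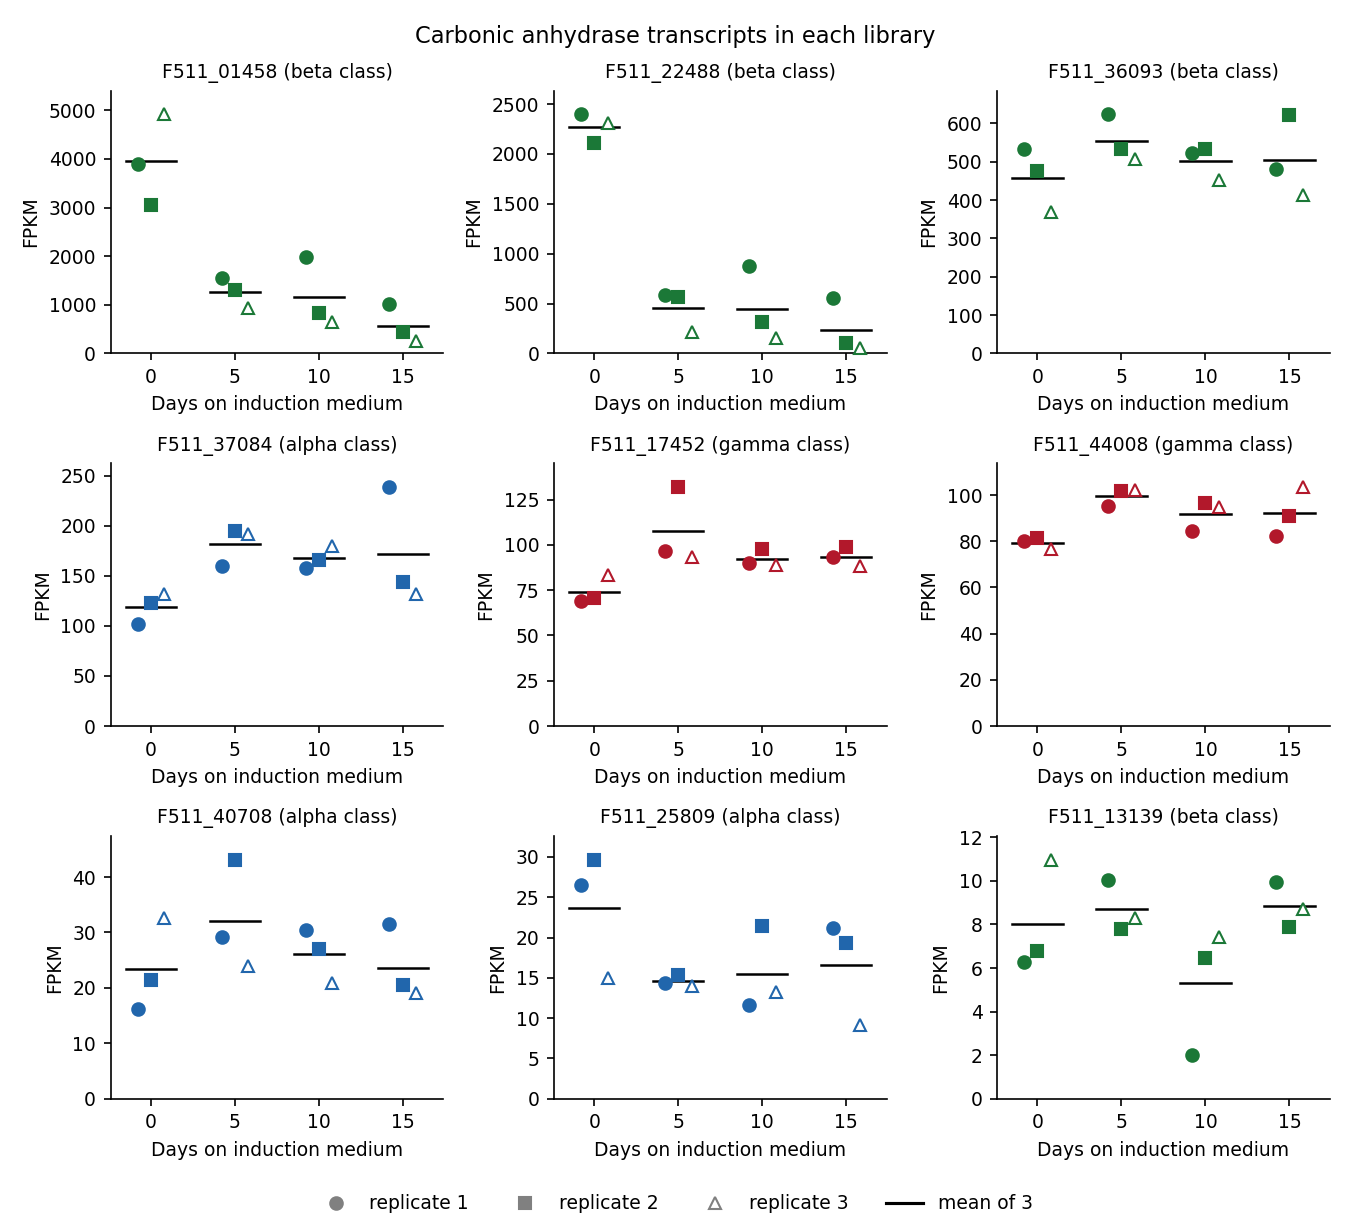
Expression in FPKM (linear axes from 0, a scale of its own for each gene) of the 9 carbonic anhydrases against days on the medium. Symbols are the 3 replicates and bars their mean. F511_01458 and F511_22488 lay lower in every later library than in any day 0 library, while F511_36093 kept between 368.09 and 623.72 FPKM in all 12 libraries.

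Another abundant gene, F511_36093, followed another course. Its product is named carbonic anhydrase, chloroplastic-like and its best match carbonic anhydrase 2-like, so its compartment is not settled by the annotation. A KEGG entry shared with the other beta genes places it in that class (scaffold KQ999003.1, 25496 to 30461, a span of 4966 bases). It stood at 532.77, 475.6 and 368.09 FPKM at day 0, at 623.72, 533.89 and 508.29 at day 5, at 521.89, 533.38 and 451.5 at day 10, and at 481.46, 622.46 and 412.87 at day 15. All days overlapped with day 0, and the highest of the 12 libraries was 1.69-fold above the lowest. Replicate 3 was the lowest library on each day.

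Day means of F511_36093 were 458.8 ± 83.6, 555.3 ± 60.6, 502.3 ± 44.3 and 505.6 ± 106.9 FPKM at days 0, 5, 10 and 15 (SD, n = 3). The log2 fold changes against day 0 were 0.29 (95% interval -0.16 to 0.73), 0.14 (-0.30 to 0.59) and 0.14 (-0.31 to 0.58). None was called (adjusted p = 0.389, 0.700 and 0.679). The intervals exclude a decrease of the size seen for F511_01458 at day 15. After rescaling the libraries by median ratios, the signs at days 10 and 15 turned to -0.03 and -0.08, again with no call. The ratio of F511_01458 to F511_36093 was 7.32, 6.43 and 13.4 at day 0 and 2.09, 0.719 and 0.625 at day 15. In replicates 2 and 3 of day 15, F511_36093 was thus the most abundant carbonic anhydrase transcript.

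The fourth beta gene, F511_13139, is named beta carbonic anhydrase 5, chloroplastic (scaffold KQ992316.1, 212659 to 214836). Its Arabidopsis counterpart is a plastid enzyme. It had the lowest mean of the 9 genes, with 6.28, 6.76 and 10.98 FPKM at day 0 and 9.96, 7.87 and 8.69 FPKM at day 15. At day 10 its values were 2.01, 6.44 and 7.42 FPKM, the first being the lowest carbonic anhydrase value of the data set. Log2 fold changes against day 0 were 0.14, -0.61 and 0.16 at days 5, 10 and 15 (adjusted p = 0.85, 0.306 and 0.796), all with overlapping libraries. The day 10 value rested on its first library, being -0.15 without it and -0.39 without replicate 3 of day 0. At days 5 and 15 the sign was negative after rescaling (-0.01 and -0.03).

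The gamma genes are named as mitochondrial proteins. F511_17452 is named gamma carbonic anhydrase-like 2, mitochondrial (scaffold KQ996969.1, 92799 to 95209). Its ontology entry lists the NADH dehydrogenase complex, that is complex I, and the mitochondrial respiratory chain, but also the plastid. It stood at 68.81, 70.72 and 83.1 FPKM at day 0 and at 96.83, 131.92 and 93.47 FPKM at day 5. At day 10 it was at 89.93, 97.45 and 88.78 FPKM, and at day 15 at 93.07, 98.66 and 88.24 FPKM. Every later library lay above every day 0 library. The log2 fold changes were 0.51 (95% interval 0.17 to 0.86, adjusted p = 0.0520), 0.31 (adjusted p = 0.228) and 0.33 (adjusted p = 0.161), and none was called.

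F511_44008, named gamma carbonic anhydrase 1, mitochondrial, varied least of the 9 genes, with the highest library 1.35-fold above the lowest (scaffold KV021157.1, 2150 to 5901). Day 0 values were 80.22, 81.57 and 76.58 FPKM, and day 5 values were 95.37, 101.67 and 102.2 FPKM. At day 10 the gene stood at 84.4, 96.67 and 94.82 FPKM, and at day 15 at 82.17, 90.73 and 103.49 FPKM. Again no later library reached down to day 0. Log2 fold changes of 0.32, 0.21 and 0.21 were not called (adjusted p = 0.118, 0.333 and 0.289). All tested genes together had a median of 0.14, 0.15 and 0.21 on the same scale, so both gamma genes lay above the median at day 5, and F511_44008 lay at the median at day 15. After rescaling, F511_17452 stood at 0.35, 0.14 and 0.12 and F511_44008 at 0.16, 0.04 and -0.01 at days 5, 10 and 15.

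Among the alpha genes F511_37084 was the most abundant. It is named alpha carbonic anhydrase 1, chloroplastic (scaffold KQ995379.1, 68285 to 69700), and its Arabidopsis counterpart reaches the chloroplast through the secretory pathway. It stood at 102.24, 122.61 and 131.9 FPKM at day 0, 159.23, 194.15 and 191.29 at day 5, 157.63, 165.62 and 179.48 at day 10, and 238.53, 143.76 and 131.76 at day 15. Days 5 and 10 did not overlap with day 0, whereas replicate 3 of day 15 fell within the day 0 range. The log2 fold changes were 0.61 (SE 0.21, 95% interval 0.14 to 1.08), 0.50 and 0.48. They were not called (adjusted p = 0.0869, 0.166 and 0.144). The day 15 value was 0.22 without its replicate 1, the library at 238.53 FPKM, and 0.27 after rescaling.

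A second alpha gene of that name, F511_40708 (scaffold KV010338.1, 7406 to 21357), had 16.19, 21.4 and 32.58 FPKM at day 0 and 31.49, 20.44 and 19.1 FPKM at day 15. Its log2 fold changes of 0.45, 0.19 and 0.04 at days 5, 10 and 15 were within the spread of the replicates (adjusted p = 0.348, 0.730 and 0.949). After rescaling, the day 15 value was -0.17. F511_25809, named alpha carbonic anhydrase 4-like (scaffold KV001976.1, 120532 to 124646), had 26.46, 29.67 and 14.95 FPKM at day 0 and 21.24, 19.28 and 9.11 FPKM at day 15. Its log2 fold changes were -0.61, -0.58 and -0.52 (adjusted p = 0.264, 0.308 and 0.315), and all days overlapped with day 0. With intervals of about 1.5 log2 units in width for F511_25809, from -1.37 to 0.14 at day 5, a fall of 2-fold could not be told from none.

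**Figure D2:**
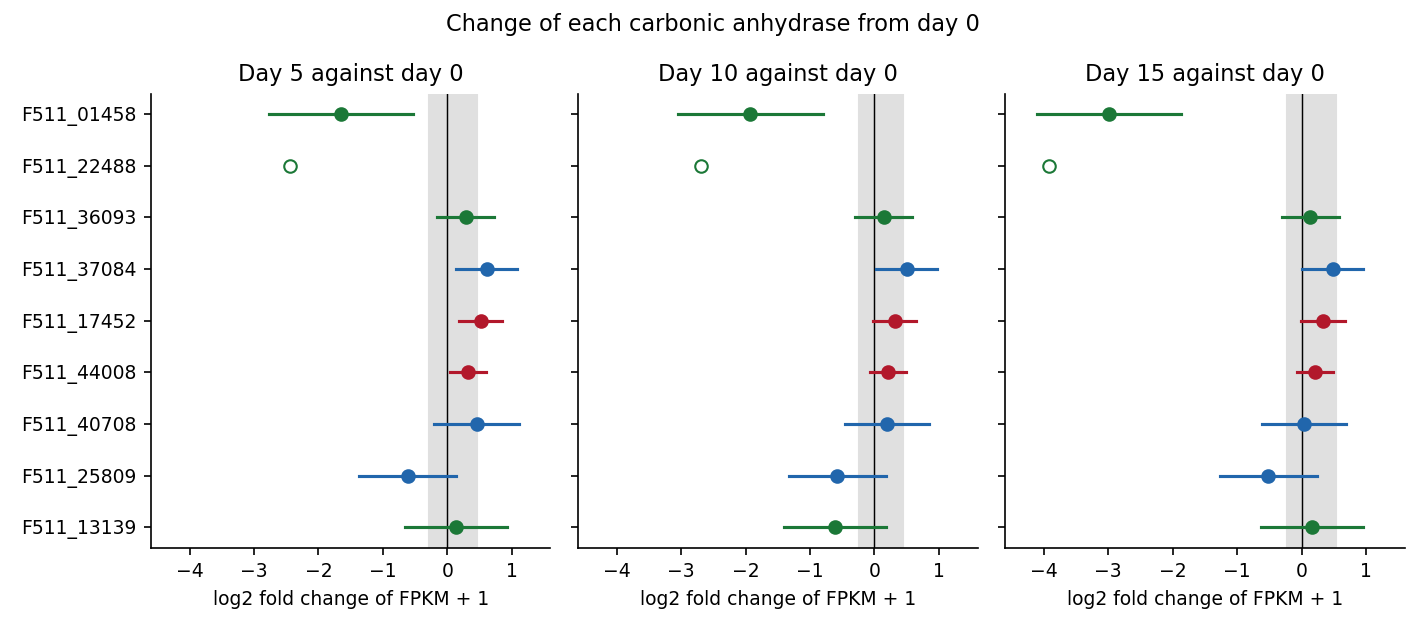
Log2 fold change of FPKM + 1 against day 0 for each carbonic anhydrase, with 95% intervals from limma. Green marks beta, blue alpha and red gamma genes, the open symbol is F511_22488 with no test, and the grey band holds the middle 50% of all genes tested. F511_01458 reached -2.99 at day 15, while the points of the 7 other tested genes lay between -0.61 and 0.61 on all 3 days.

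Of the 8 genes tested, 0 were called at day 5, 1 at day 10 and 1 at day 15. The gene called was F511_01458 both times. Over all genes tested the share called was 6.61% at day 5, 4.49% at day 10 and 9.02% at day 15, so the count among carbonic anhydrases is not set apart from the background. In the lower direction the shares were 3.48%, 2.26% and 4.38%, and in the higher direction 3.13%, 2.24% and 4.63%. Libraries of the compared days did not overlap for 4, 4 and 3 of the 8 genes, against 34.5%, 29% and 37.7% of all genes. The comparisons share the day 0 libraries and are not independent of one another.

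Between successive later days limma called 0 of the 8 genes, as it did 0 genes of the whole table from day 5 to day 10 and from day 10 to day 15 (0% of all genes each time). At an unadjusted p under 0.05 there were 539 and 561 genes in these steps. For F511_01458 the step from day 5 to day 10 was -0.27 and that from day 10 to day 15 was -1.06 on the log2 scale (95% interval of the latter -2.18 to 0.06). The adjusted p was 1 for both. Only 1 of the 8 genes, F511_13139, had non-overlapping libraries in each of these steps (7.13% and 6.1% of all genes).

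Summed over the 9 genes, carbonic anhydrase transcripts reached 5979.2 to 7942.6 FPKM at day 0, which was 0.638% to 0.825% of the library total. At day 5 the sum was 2085.4 to 3171.2 FPKM, and at day 10 it was 1658.8 to 3754.5 FPKM. At day 15 it was 1089.2 to 2516.1 FPKM, or 0.129% to 0.266% of the total. F511_01458 and F511_22488 together held 86.5% to 91.0% of the sum at day 0, 54.9% to 67.6% at day 5, 48.4% to 76.1% at day 10 and 29.0% to 61.9% at day 15. The alpha genes summed to 144.9 to 179.4 FPKM at day 0 and 160.0 to 291.3 FPKM at day 15. The gamma genes summed to 149.0 to 159.7 FPKM at day 0 and 175.2 to 191.7 FPKM at day 15. The sum and its make-up thus followed the 2 abundant beta genes, one of which the selection named. In pooled leaf pieces, fewer cells of a type and less RNA per cell cannot be told apart.

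**Figure D3:**
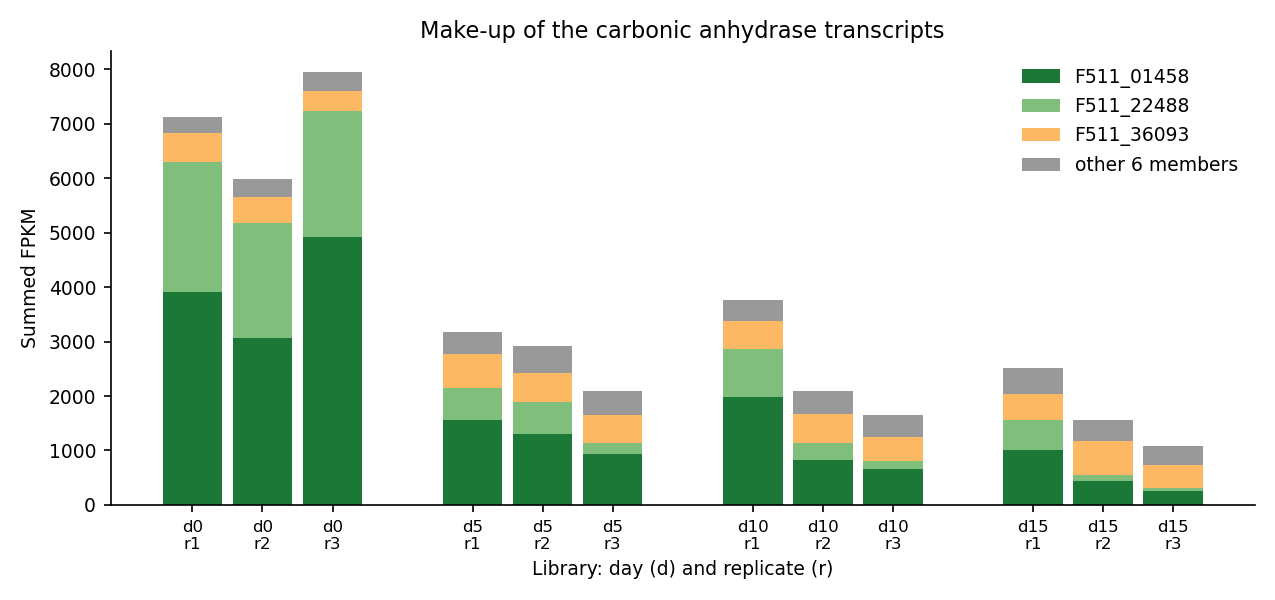
Summed FPKM of the carbonic anhydrases in each library (d, day; r, replicate), stacked by gene. The sum lay between 5979.2 and 7942.6 FPKM at day 0 and between 1089.2 and 2516.1 FPKM at day 15, and F511_36093 exceeded F511_01458 in replicates 2 and 3 of day 15.

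Across the 12 libraries, which share days and replicates, F511_01458 and F511_22488 varied together (Pearson r = 0.981 on log2(FPKM + 1)). By this measure F511_01458 ranked 10 of all tested genes for likeness to F511_22488. The correlation of F511_22488 was 0.542 with F511_25809, 0.229 with F511_40708, -0.114 with F511_36093 and -0.151 with F511_13139. It was -0.337 with F511_37084, -0.432 with the gamma gene F511_17452 and -0.768 with the gamma gene F511_44008. The named genes most like F511_22488 encode the chloroplast glyceraldehyde-3-phosphate dehydrogenase B, a Calvin cycle enzyme (F511_29194, r = 0.993), and subunit M of the chloroplast NAD(P)H-quinone oxidoreductase (F511_05029, r = 0.986). Next were the chloroplast glutamine synthetase, which assimilates ammonium (F511_04119, r = 0.986), a Rubisco small chain (F511_34498, r = 0.986) and NADPH-dependent thioredoxin reductase 3 (F511_14534, r = 0.984). Without the replicate 3 libraries these correlations were 0.969 to 0.986.

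These genes were chosen for their likeness, so that their courses resemble one another is no finding. The Rubisco small chain averaged 46596.5 ± 2678.0 FPKM at day 0 and 11364.4 ± 5060.6 FPKM at day 15. Glutamine synthetase averaged 644.8 ± 72.4 FPKM at day 0 and 82.1 ± 51.0 FPKM at day 15. NADPH-dependent thioredoxin reductase 3 had a shallower course, from 83.8 ± 5.8 to 39.3 ± 12.2 FPKM (SD, n = 3 each). Genes most like F511_01458 were the chloroplast 50S ribosomal protein L15 (F511_39436, r = 0.985), magnesium protoporphyrin IX methyltransferase of chlorophyll synthesis (F511_02928, r = 0.983) and the isomerase CYP20-2 (F511_28434, r = 0.983), with 0.98, 0.968 and 0.977 without the replicate 3 libraries. For F511_36093 the closest were thioredoxin O1 (F511_01797, r = 0.91), cytochrome b-c1 complex subunit 9 (BGI_novel_G000997, r = 0.906) and the histone deacetylase complex subunit SAP18 (F511_30023, r = 0.899), with 0.875, 0.854 and 0.797 without the replicate 3 libraries. The first is named as a mitochondrial protein, the second as a respiratory chain subunit and the third as neither. They too were chosen for their likeness, so their names are no finding on F511_36093, which was not called on any day.

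**Figure D4:**
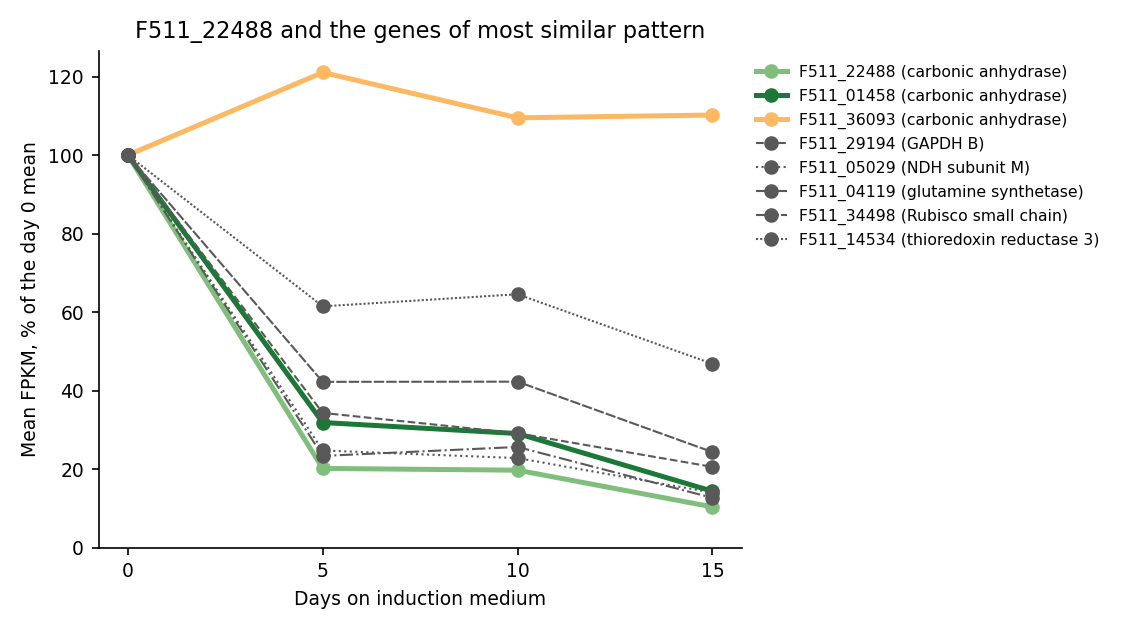
Mean FPKM of each day (n = 3) as a percentage of the day 0 mean for 3 carbonic anhydrases (thick lines) and the 5 genes most like F511_22488 over the 12 libraries (thin lines). F511_22488 and F511_01458 stood at 10.4% and 14.4% of day 0 at day 15, and F511_36093 at 110.2%.

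The genes around carbonic anhydrase in carbon fixation were then described by lists drawn from the annotation. Over all genes tested, 4.38% were called lower and 4.63% higher at day 15, and each list count at that day stands beside these shares. Of 14 tested genes for Rubisco and its activase, 6 were called lower and 0 higher at day 15. Below 0 lay 11 of the 14, with a median log2 fold change of -0.31. The Rubisco small chain F511_34498 fell by 2.13 (SE 0.47, adjusted p = 0.0134). The activase F511_06046, which frees Rubisco of bound sugar phosphates, fell by 2.09 (SE 0.36, adjusted p = 0.00627). The more abundant activase F511_38143 fell by 1.91 (SE 0.46, adjusted p = 0.0195), a call lost without replicate 1 or 2 of day 0, without replicate 2 or 3 of day 15 and on replicates 1 and 2 only (adjusted p up to 0.0681). Without replicate 1 or 2 of day 0, or replicate 2 or 3 of day 15, only 2 to 3 genes of this list were called lower. The summed FPKM of the list of 19 genes was 58628.5 to 64195.4 at day 0 and 10048.8 to 23390.1 at day 15.

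Of 17 tested genes for other Calvin cycle enzymes, 9 fell and 1 rose at day 15 (median -1.32). Glyceraldehyde-3-phosphate dehydrogenase B, F511_29194, fell by 2.46 (SE 0.47, adjusted p = 0.00842). Phosphoribulokinase F511_37412, which makes the sugar that Rubisco uses, fell by 1.55 (SE 0.41, adjusted p = 0.0266), a call lost without any 1 replicate of day 0 and without replicate 2 or 3 of day 15 (adjusted p up to 0.0893). The transketolase F511_15196 stood at -0.85 (adjusted p = 0.0382), under the fold minimum, and was called after rescaling and without replicate 1 of day 15. Of 15 genes matched by text as photorespiration enzymes, 5 were called lower and 1 higher, and only 9 lay below 0 (median -0.26). Such a match can also hold forms of these enzymes that act elsewhere. Mitochondrial serine hydroxymethyltransferase F511_25859, which makes serine from glycine, fell by 2.66 (SE 0.50, adjusted p = 0.00819), and the glycine cleavage H protein F511_26731 fell by 2.94 (SE 0.61, adjusted p = 0.0113). Serine hydroxymethyltransferase 4, F511_00778, whose name gives no compartment, stood at 0.43 (SE 0.16, adjusted p = 0.0855) and was not called. The calls of F511_34498, F511_06046, F511_29194, F511_25859 and F511_26731 were made under all 19 alternatives. For comparison, F511_01458 fell by 2.99 at the same day.

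Light-harvesting chlorophyll-binding proteins, which feed light energy to the photosystems, had 3 of 13 genes called lower at day 15 (4.38% of all genes). All 13 log2 fold changes were below 0 (median -1.24). This count was 1 without replicate 1 of day 0, replicate 2 of day 15 or replicate 3 of day 15, 1 on replicates 1 and 2 alone, and 5 without replicate 1 of day 10. Their sum varied within a day, from 15550.9 to 49256.1 FPKM at day 0. These genes had their lowest median at day 5 (-2.69), whereas the median at day 10 was -0.99. The 2 abundant beta genes had means at day 10 close to those at day 5.

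Genes that use or release bicarbonate or carbon dioxide around malate (phosphoenolpyruvate carboxylase, malic enzymes and others) had 0 called higher and 3 called lower of 29 at day 15. The shares over all genes were 4.63% and 4.38%, and the median of the list was 0.16. The lower count was 1 without replicate 2 of day 0 or replicate 2 of day 15. Of 30 tested genes for mitochondrial complex I, 0 were called in either direction at days 5, 10 or 15, and 0 to 2 under the alternatives. Their medians at days 5, 10 and 15 were 0.30, 0.13 and 0.21, beside 0.14, 0.15 and 0.21 over all genes tested. The gamma gene F511_44008 stood at 0.32, 0.21 and 0.21, and F511_17452 stood higher at 0.51, 0.31 and 0.33. The most abundant complex I gene, F511_02823, had a log2 fold change of 0.45 at day 15 (SE 0.15, adjusted p = 0.0568). Plasma membrane aquaporins, which pass water and in some cases carbon dioxide, had 3 of 7 called higher and 0 called lower at day 15. With a library left out, 2 to 4 were called higher, and 1 was called lower after rescaling, on replicates 1 and 2 only and without replicate 3 of day 0 or replicate 1 of day 15. Among them PIP1-2, F511_09285, rose by 1.42 (SE 0.18, adjusted p = 0.00164) from 714.7 ± 24.1 to 1930.3 ± 247.3 FPKM (SD, n = 3).

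**Figure D5:**
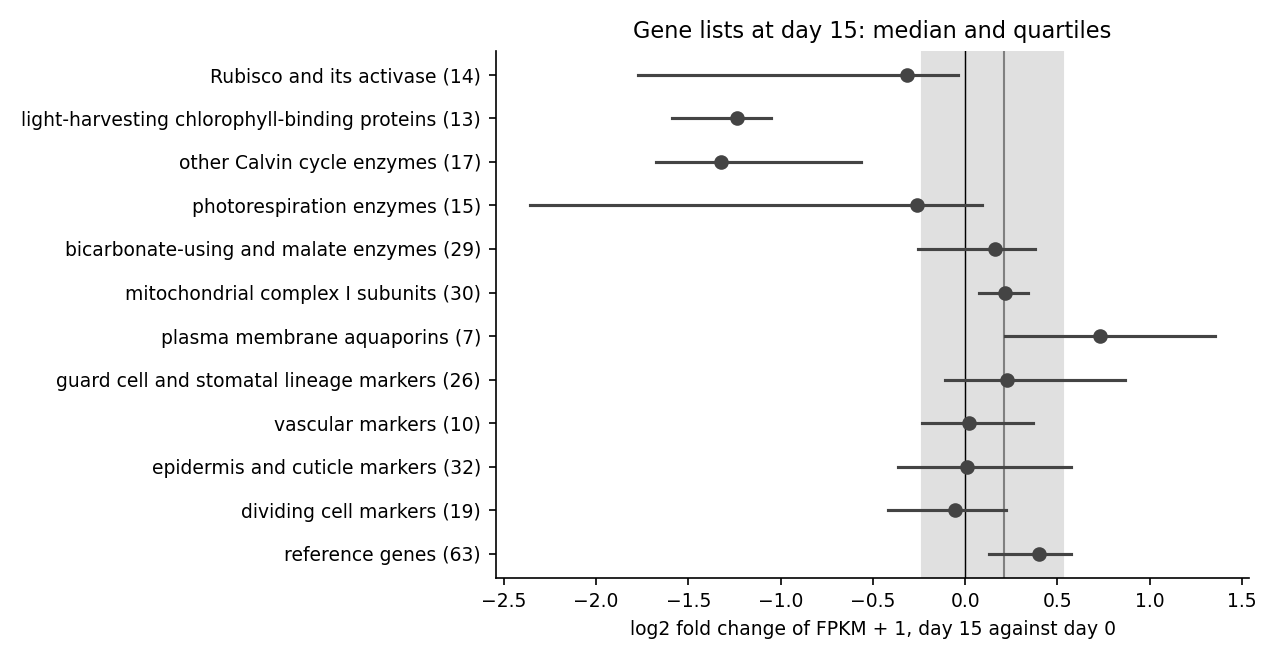
Log2 fold change of FPKM + 1 at day 15 against day 0 for the tested genes of each list (number in brackets): points are medians and lines quartiles, and the grey line and band are the median and quartiles of all genes tested. Medians were -1.32 for other Calvin cycle enzymes, -1.24 for light-harvesting proteins and 0.21 for complex I, beside 0.21 for all genes.

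Markers of other cells that a leaf piece can hold were measured beside these results. At day 15, 4.63% of all genes tested were called higher and 4.38% lower. The guard cell and stomatal list of 31 genes, of which 14 are aspartic proteases or nepenthesins by name and so text matches rather than defining markers, summed to 579.7 to 972.2 FPKM at day 0 and 898.4 to 1087.8 FPKM at day 15. Of its 26 tested genes 3 were called higher and 1 lower at day 15, and 2 were at 0 in all day 15 libraries (2 to 5 called higher with a library left out). Its 5 defining markers (the anion channel SLAC1, the factors FAMA and SPEECHLESS and 2 TOO MANY MOUTHS genes) summed to 18.1 to 20.3 FPKM at day 0 and 20.4 to 24.7 FPKM at day 15. SLAC1, F511_08794, went from 3.84 to 4.14 FPKM at day 0 to 6.85 to 7.76 FPKM at day 15, and SPEECHLESS was at 0 in all libraries of both days. The others overlapped between these days. FAMA was at 7.08 to 10.32 FPKM at day 0 and 7.32 to 10.78 FPKM at day 15. The TOO MANY MOUTHS genes were at 3.45 to 7.43 and 4.21 to 4.92 FPKM (F511_06061) and at 0.5 to 1.93 and 1.08 to 1.75 FPKM (F511_00289). The 14 vascular markers summed to 148.1 to 197.6 FPKM at day 0 and 127.4 to 219.2 FPKM at day 15, with 0 of 10 called, and 1 gene was at 0 in all libraries of each of these days. The 40 epidermis and cuticle markers summed to 930.5 to 1359.9 FPKM at day 0 and 869.2 to 1381.7 FPKM at day 15, with 1 of 32 called higher and 0 lower (1 gene at 0 at day 0 and 2 at day 15). This call was lost without replicate 1 or 2 of day 0 and without replicate 2 or 3 of day 15. The 21 genes of the dividing cell list summed to 369.6 to 532.8 FPKM at day 0 and 447.5 to 523.8 FPKM at day 15, with 1 of 19 called higher and 0 lower and 1 gene at 0 on each day. That sum includes F511_07596, a dedicator of cytokinesis protein caught by the text match and not a defining marker. It averaged 122.0 ± 17.3 FPKM at day 0 and 113.7 ± 5.4 FPKM at day 15 (SD, n = 3). The gene called, BGI_novel_G000022, is a calcyclin-binding protein caught by the text match and no marker of division, and its call was lost after rescaling and without replicate 1 or 2 of day 0 or replicate 2 of day 15. The 7 defining markers, mitotic cyclins and the cytokinesis syntaxin KNOLLE, summed to 160.9 to 272.2 FPKM at day 0 and 179.8 to 271.5 FPKM at day 15, with 0 at 0. Most of that sum was cyclin-B1-2-like, F511_02253 (96.55 to 145.4 FPKM at day 0, 157.0 to 198.3 FPKM at day 5 and 143.6 to 193.1 FPKM at day 15). The other defining markers had lower ranges at day 5 than at day 0, some of them overlapping, which the sum hides. The cyclin F511_19703 was at 13.22 to 35.29 FPKM at day 0 and 3.93 to 12.67 FPKM at day 5. The cyclin F511_21096 was at 8.35 to 29.11 FPKM and 2.81 to 8.66 FPKM on these days. At day 5, 0 genes of the list were called. KNOLLE, F511_32206, was at 12.88 to 27.8 FPKM at day 0, 3.72 to 13.52 FPKM at day 5, 4.41 to 18.13 FPKM at day 10 and 7.95 to 18.73 FPKM at day 15. The 63 tested reference genes (actins, tubulins, polyubiquitins and others) had a median log2 fold change of 0.40 at day 15, with 5 called higher and 1 lower. The higher count was 1 after rescaling, 8 on replicates 1 and 2 only and 2 to 5 with a library left out, and the lower count 0 without replicate 1 of day 0, 2 without replicate 3 of day 0 or of day 10, and 4 on replicates 1 and 2 only. The part of cell make-up in the carbonic anhydrase differences was not tested.

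The deposited tables of regions with different DNA methylation between leaf ages held 7143 regions over 4 tables. These regions lay on 18 scaffolds, while the expression table names 5817. None of the 18 holds a carbonic anhydrase gene, and 0 of the 9 genes were tied to a region. Methylation at the carbonic anhydrase genes was therefore not analysed here.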

How the data were processed

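RNA was measured in 12 libraries (days 0, 5, 10 and 15, 3 replicates each). The values are FPKM, computed by the authors and used as deposited. Per the submitters' processing notes HISAT, StringTie 1.0.4, Bowtie2 2.2.5 and BSMAP were used, with no role stated; the genome build, annotation and strand setting are not given in the sources used here. Read depth is unknown because no counts were used, and no counting intervals could be computed.

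Testing was limited to the 17288 of 24110 genes that reached 1 FPKM in 3 or more libraries. With a pseudocount of 1 on the log2 scale, which understates changes of low genes, day means were estimated in 1 limma model of the 12 libraries (limma 3.58.1 with statmod 1.5.0 in R 4.3.3, eBayes with trend and robust variances). Tests are two-sided, with Benjamini-Hochberg adjustment over all genes tested. The fit was tested on simulated data.

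Alternatives were a pseudocount of 0.1, no filter, median-ratio rescaling, a fit of the 6 libraries compared, a replicate block, plain variances, replicates 1 and 2 only, and each library left out. The carbonic anhydrases, the 12 gene lists (text patterns on the annotation) and the alternatives were chosen with earlier results of these data known. Named genes are all carbonic anhydrases, the genes most correlated with the 3 most abundant of them (mean of at least 10 FPKM and a named protein), and the 3 of highest mean FPKM in each list, of which the text names a part, chosen after their values were seen, as were the defining markers within 2 lists. From the methylation tables only positions and the authors' gene ties were used.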

Additional observations from a re-analysis of the deposited data

How the results depend on the processing

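Of 494 alternative values for the fold changes of the 8 tested carbonic anhydrases, 462 kept their direction and their side of the threshold. This share says little, since many settings leave the fold change the same by construction and can move only the adjusted p. These are no filter, the 6 libraries, the replicate block, plain variances and a left-out library of a day not compared. All 14 lost calls were of F511_01458 at day 10, and all 5 gained calls were of F511_01458 at day 5. For F511_01458 the count of carbonic anhydrases called at day 5, 0 as reported, was 1 on the 6 libraries compared and 1 with a replicate block, and 0 to 1 with a library left out. At day 10, 1 as reported, it was 0 with no filter, 0 after rescaling, 0 on the 6 libraries, 0 with plain variances and 0 on replicates 1 and 2 only, and 0 to 1 with a library left out. At day 15 it was 1 throughout. Genes called in all were 1142, 777 and 1559 at days 5, 10 and 15. On replicates 1 and 2 only they were 2033 and 1492 at days 5 and 10, and on the 6 libraries 88 at day 10. Leaving out a library gave 417 to 1414 at day 5 (lowest without replicate 2 of day 5; 449, 540 and 451 without replicates 1 and 2 of day 0 and replicate 1 of day 5). It gave 205 to 1177 at day 10 (without replicates 1 and 3 of day 0; 301 and 300 without replicate 2 of day 0 and of day 10) and 753 to 1894 at day 15 (lowest without replicate 1 of day 0; 992, 924 and 1021 without replicate 2 of day 0 and replicates 2 and 3 of day 15). Between later days, 0 as reported became 1 from day 5 to 10 on replicates 1 and 2 only, and from day 10 to 15 became 1 with no filter, 1 with plain variances and 22 on replicates 1 and 2 only. Signs of uncalled log2 fold changes turned after rescaling for F511_13139 (-0.0107 at day 5, -0.0331 at day 15), F511_36093 (-0.0272 at day 10, -0.0805 at day 15), F511_44008 (-0.00889 at day 15) and F511_40708 (-0.168 at day 15). With a library left out, values ran from -0.00707 to 0.259 and -0.0245 to 0.271 for F511_36093 at days 10 and 15, from -0.0326 to 0.45 and -0.186 to 0.297 for F511_40708, and from -0.75 to 0.0509 for F511_01458 between days 5 and 10. The cause was not tested. Of 18 pairs of same-numbered libraries from different days, 14 had deviations from the day means that correlated over 0.1 (lowest -0.0109, median 0.192), against 6 of 36 pairs of unlike numbers (median -0.126). In 23 of 36 cases of a library and another day, the best correlation was with its own number, 12 of 12 for replicate 3. The 4 of the 18 pairs not over 0.1 were of replicates 1 and 2, while those of replicate 3 ran from 0.166 to 0.656. No label ties the numbers to a batch, and they were not taken as a pairing in the main fit. Whether F511_01458 was called at day 5 depended on this choice. With the replicate block F511_01458 had an adjusted p of 0.0208 at day 5, and 1500, 1116 and 1917 genes were called at days 5, 10 and 15.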
